A study of Caenorhabditis elegans with 4 samples.

Results

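Chromosome II carried 531 of the 3503 LIN-13 peaks of the combined list in C. elegans larvae of the L2 stage, and these peaks are described here. They were chosen by chromosome alone, as every peak of that list placed on II. The lists of ChIP replicates 1 and 2 had 225 of 1494 and 309 of 1997 peaks on II. The assay was ChIP-seq, or chromatin immunoprecipitation followed by sequencing, in which DNA bound by a protein is enriched with an antibody and read, and stretches with more reads than a control are called as peaks.

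All samples came from hermaphrodites of strain OP49, which carries the unc119(ed3) allele and the transgene wgIs49, a fusion of lin-13 to TY1, EGFP and FLAG tags with unc119 as marker. The transgene was introduced by bombardment, and neither its site nor its number of copies is given in the sources used here. Worms were grown at 20 degrees and fixed with 2% formaldehyde, and the fusion protein was collected with a goat antibody against GFP. The series had 2 ChIP samples and, as controls, 2 inputs of total chromatin, of which no values were used here. The description fields of ChIP and input samples appeared exchanged, and the groups follow the titles. Nothing says that replicates 1 and 2 were separate cultures, and the spread between them may be technical. The sequencing depth is unknown, because the lists hold no read counts, and peak numbers and q-values depend on it.

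LIN-13, a protein with zinc fingers, belongs to the synMuv B group of chromatin regulators that keep vulval and germline programmes in check in the worm's somatic cells. It works with HPL-2, a worm homologue of heterochromatin protein HP1, and with LIN-61, a protein with MBT repeats. Worm autosomes have centres rich in widely used genes and arms that recombine more often and hold more repeats and more H3K9 methylation, a mark of heterochromatin. Positions below are in WormBase build WS180 and are given without gene names or sequences, because no genome or annotation of that build was used here.

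Peak strength is given as −log10 of the q-value that PeakSeq assigned to each peak, the authors' own value, which ranks peaks within 1 list. The 531 combined peaks on II had a median strength of 6.55 (range 3.57 to 285.7) and a median width of 506 bp, with quartiles of 362.5 and 827.5 bp. They covered 397.4 kb, or 2.60% of the extent of 15.26 Mb taken as the last peak end of any list. Their density was 34.8 peaks per Mb, inside the range of 26.3 to 61.1 of the other 4 autosomes. In replicates 1 and 2 the density on II was 14.7 and 20.2 per Mb, and the median width was 513 and 493 bp. In density, median width and covered share, II lay inside the range of the other autosomes in the combined list. Its peak number and median strength lay below their ranges of 548 to 842 peaks and 6.70 to 7.21. Its upper width quartile lay above theirs (697.75 to 818 bp). In replicate 1 its median strength of 6.61 was instead above theirs (5.97 to 6.37).

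Chromosome II had an imbalance between its arms, taken as the outer 25% at each end by peak midpoint. The combined list had 94 peaks in the left arm, 285 in the centre and 152 in the right arm. This made 24.6, 37.3 and 39.8 peaks per Mb, so the left arm was the sparse zone of II. Its right arm had about the density of the centre. The other autosomes had 15.9 to 59.3 per Mb in left arms, 34.9 to 66.2 in centres and 19.7 to 52.9 in right arms. Each zone of II lay inside these ranges. Replicate 1 had 39, 115 and 71 peaks and replicate 2 had 45, 172 and 92 peaks in the same zones. Both replicate lists therefore also held more peaks in the right arm than in the left.

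Of the arm peaks on II, 152 of 246 lay in the right arm (61.8%, 95% Wilson interval 55.6 to 67.6%), against 524 of 1117 on chromosomes I, III, IV and V together (46.9%, 44.0 to 49.8%). The difference of 14.9 percentage points passed (two-sided Fisher's exact test, p adjusted over 7 tests = 0.00021). In replicate 1 the right arm held 64.5% of arm peaks on II and 44.7% on the other autosomes, and in replicate 2 67.2% and 46.1%. Fisher's exact test passed in these lists as well (adjusted p = 0.0014 for replicate 1 and 5.8e-05 for replicate 2). Peaks are counted as independent in this test, although neighbours are not, so its p-values describe the lists and are too small. With each run of peaks less than 5000 bp apart counted once, the share was still 61.6% on II and 47.8% on the others (Fisher's exact test, adjusted p = 0.011).

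The other autosomes were not alike among themselves. Their combined lists had 50.2% of arm peaks in the right arm on I, 47.2% on III, 38.2% on IV and 55.4% on V. Set against single autosomes, II passed against III and IV (Fisher's exact test, adjusted p = 0.0023 and 4.5e-07). It did not pass against I or V (Fisher's exact test, adjusted p = 0.065 and 0.55). Each of these p-values was adjusted in place of the main one among the 7 tests. Before adjustment, that against I was 0.0093 (Fisher's exact test). The lean to the right arm on II was thus larger than the pooled value of the others, and its difference from V alone, 6.41 percentage points, did not pass. On IV an imbalance of like size ran the other way, with 178 peaks in the left arm and 110 in the right. The right arm minus the left was -68 peaks on IV and 58 on II. Chromosome X, left out of the tests, had 58.1% of its arm peaks in the right arm.

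**Figure D1:**
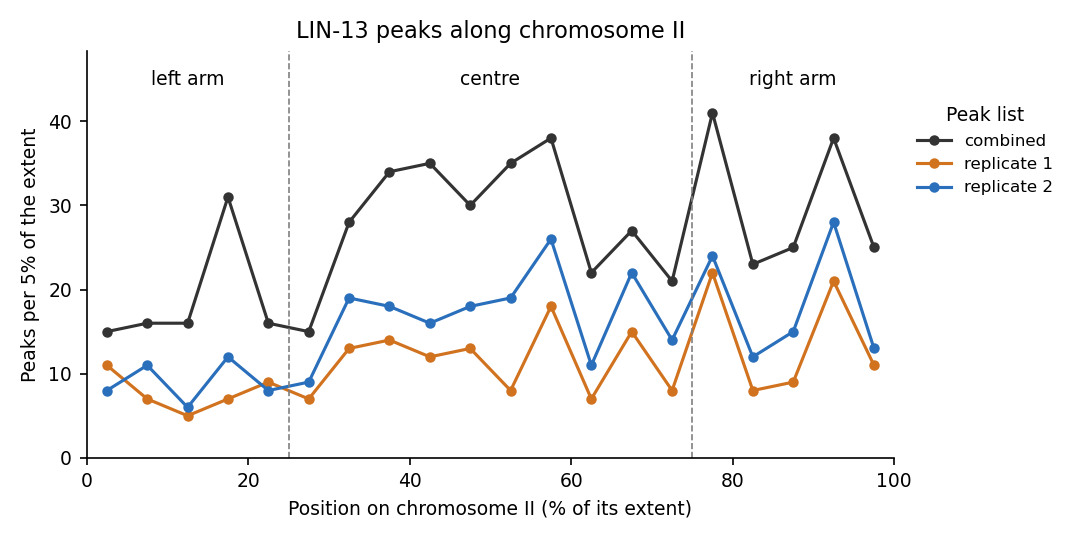
Number of LIN-13 peaks in each 5% of the extent of chromosome II (x axis, % of the extent from the left end), for the combined list and the 2 replicate lists. Points are counts of peaks by midpoint, and dashed lines mark the outer 25% at each end; in the combined list the counts of the left arm are 15 or 16 except for 31 in 1 bin, whereas those of the right arm range from 23 to 41.

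**Figure D2:**
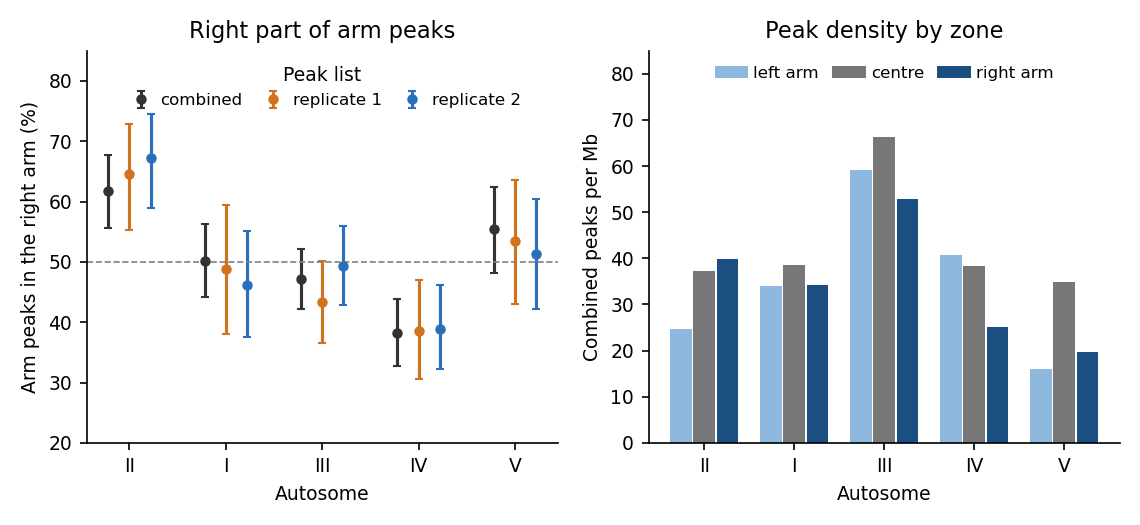
Left panel: share of arm peaks that lay in the right arm (y axis, %) for each autosome, with 95% Wilson intervals, in the combined list and each replicate list; the dashed line marks 50%. Right panel: combined peaks per Mb in the left arm, centre and right arm; on II the left arm has 24.6 per Mb against 39.8 in the right arm.

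Arms as a whole held about the same share of peaks on II as on I, III and IV, and a larger one than on V. Together they held 246 of 531 peaks on II (46.3%, Wilson interval 42.1 to 50.6%) and 1117 of 2562 on the other autosomes (43.6%, 41.7 to 45.5%), a difference short of the threshold (adjusted p = 0.55, Fisher's exact test). Against chromosome V alone, whose arms held 33.8%, the difference passed (adjusted p = 0.00011, Fisher's exact test). The arms of I, III and IV held 46.9, 45.8 and 46.3%, and without V the others together had 46.3%.

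Part of the left arm was nearly bare of peaks. Between II 1402569 and II 2054976, 652.4 kb or 17.1% of the left arm, the combined list had 1 peak, which was 58 bp wide with a strength of 3.81, at II 1661436 to 1661493. Neither replicate list had a peak in that stretch. The stretch was picked after its values were seen. Without it the left arm had 29.4 peaks per Mb, still under the 37.3 of the centre and the 39.8 of the right arm.

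The 5 longest gaps between neighbouring peaks on II measured 204.4 to 393.5 kb, and 3 of them lay in the left arm. They began at II 1661494, 9323184, 1402569, 873769 and 4094589. The longest gap of the other autosomes ranged from 161.0 to 750.9 kb, so that of II lay inside this range.

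By megabase, the count of combined peaks ran from 16 in each of Mb 1 and 2 to 48 in Mb 7, leaving out the short last bin. The bin of Mb 3 stood apart within the left arm, with 46 combined peaks but only 12 in replicate 1 and 18 in replicate 2. Of those 46, 9 (19.6%, Wilson limits 10.7 and 33.2%) were found in both replicates. A further 27 (58.7%, limits 44.3 and 71.7%) were in neither. The backgrounds over all combined peaks were 35.7% and 40.9%. The share found in both replicates was lowest in Mb 8, at 5 of 37 (13.5%, limits 5.91 and 28.0%). It was highest in Mb 1 and Mb 5, at 8 of 16 and 12 of 24 (50% each). Their limits, 28.0 and 72.0% in Mb 1 and 31.4 and 68.6% in Mb 5, enclosed the background. These bins were picked for their values, and differences between bins were not tested. The densest bins of 100 kb on II held 12 peaks, and of 153 bins 14 were empty.

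The 20 strongest peaks on II lay in the centre and right arm. Of these peaks with the lowest q, 13 were in the centre, 7 in the right arm and 0 in the left arm. The chromosome as a whole had 285, 152 and 94 peaks in these zones. All 20 overlapped a peak in both replicates, against 35.7% of all combined peaks and 128 of the 133 strongest on II (96.2%). The weakest of them had a strength of 42.2 and the next peak outside the set 41.3. Among all 531 peaks, 57 (10.7%) belonged to the strongest 10% of the whole list, against a background of 9.99% and against 248 of 2562 (9.68%) on the other autosomes. That difference missed the threshold (Fisher's exact test, adjusted p = 0.55). The 57 peaks were 8 of the 94 in the left arm, 26 of the 285 in the centre and 23 of the 152 in the right arm. At this wider cut the left arm was thus not without strong peaks.

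The leading peak, II 10541880 to 10557549 in the centre, was 15670 bp wide with a strength of 285.7 in the combined list. Replicate 1 had 2 peaks there, one of 11797 bp with a strength of 102.0 and one of 2407 bp with 10.3. Replicate 2 also had 2, of 12884 bp (139.3) and 2405 bp (11.6). Each replicate split the domain near its right end, so the single combined block stood over a long strong piece and a short weak one. The long pieces began within 16 bp of the combined start, and the breaks between the pieces spanned II 10553681 to 10555153 in replicate 1 and II 10554780 to 10555193 in replicate 2.

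Further binding lay beside this domain. A combined peak of 2076 bp with a strength of 12.3 began 773 bp to the right, at II 10558323 to 10560398, and replicate 2 alone had a peak there (5.13). Beyond it, II 10563136 to 10563738 was a narrow peak of 603 bp that ranked seventh on II. Its strength was 81.3 in the combined list, 51.2 in replicate 1 and 65.7 in replicate 2, where it ranked 16 in the whole list of each replicate. A wide domain and a narrow peak of high strength thus stood 5586 bp apart.

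In the centre the second strongest peak was II 8741950 to 8747940, 5991 bp wide, with strengths of 103.6 in the combined list, 47.5 in replicate 1 and 58.6 in replicate 2. The narrow peak II 5844378 to 5845248 (871 bp) had 98.2, 45.6 and 66.6 in the same lists. Nearby, II 5543226 to 5544466 (1241 bp) had 96.4, 49.6 and 53.4. These narrow peaks were as strong as domains several times their width. II 9281197 to 9285999 (4803 bp) had strengths of 80.96, 31.4 and 41.7, II 5660487 to 5662713 (2227 bp) had 76.99, 38.6 and 46.8, and II 6345167 to 6349313 (4147 bp) had 68.9, 31.9 and 37.8. Their replicate peaks were all called as single blocks.

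In the right arm the strongest peak was II 11633929 to 11637841, 3913 bp wide, with a strength of 103.02 in the combined list and 58.7 in replicate 2. Replicate 1 split it into peaks of 2793 bp (31.5) and 1000 bp (8.42). The second, II 14598221 to 14607158, was a domain of 8938 bp with 84.8 in the combined list, 32.5 in replicate 1 and 54.4 in replicate 2. It was the widest peak of the right arm and was a single block of 7699 and 7965 bp in replicates 1 and 2.

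The peaks at positions 11 to 20 had combined strengths from 42.2 to 58.5. Their partners ranged from 4.36 to 31.9 in replicate 1 (median 20.9) and from 24.4 to 43.5 in replicate 2 (median 27.4). The low value of 4.36 came from II 14249383 to 14252019, whose partner of largest overlap in replicate 1 was a weak peak of 1221 bp. A second peak of replicate 1 in the same interval, II 14250918 to 14251910, had 24.7. Replicate 2 split the interval the same way, into peaks with 5.63 and 28.0. The other 9 of these were, in order of strength, II 8560933 to 8561955, 15025085 to 15026073, 11761636 to 11762451, 10174105 to 10174804, 14561492 to 14561911, 6888127 to 6892192, 13834160 to 13835074, 9058987 to 9062551 and 8184898 to 8185388. In 19 of the 20 strongest peaks the strength in replicate 2 was above that in replicate 1, which the unknown depth does not allow to be read as more binding.

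Broad peaks, at least 1500 bp wide, numbered 44 on II (8.29%, Wilson interval 6.23 to 10.9%), against a background of 7.94% over all combined peaks. On the other autosomes there were 186 of 2562 (7.26%, 6.32 to 8.33%), a difference short of the threshold (Fisher's exact test, adjusted p = 0.55). These 44 peaks held 128.3 kb, or 32.3% of all bases under peaks on II, and the widest alone held 3.94%. The 10 widest measured 3565 to 15670 bp, the next one 3253 bp, and 8 of the 10 were also among the 20 strongest. The remaining 2 were II 5334634 to 5339509 (4876 bp, strength 38.0) and II 9933261 to 9937031 (3771 bp, strength 39.6).

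Few broad peaks lay in the left arm of II. It had 2 of 94 (2.13%, Wilson interval 0.585 to 7.43%), the centre had 30 of 285 (10.5%, 7.47 to 14.6%) and the right arm 12 of 152 (7.89%, 4.57 to 13.3%). The left arms of the other autosomes had 3.93 to 8.43%, their centres 7.14 to 7.90% and their right arms 4.65 to 11.8%. In replicate 1 the broad share on II was 2.56, 7.83 and 2.82% from left arm to right arm. In replicate 2 it was 6.67, 8.14 and 4.35%, so the left arm was not the lowest there. These zone values rest on 1 to 3 broad peaks in the left arm of each list and are given without a test.

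Broad peaks of the combined list were often in pieces, or absent, in a single replicate. Replicate 1 had no peak in 14 of the 44, a single peak in 24 and 2 or more in 6. In replicate 2 these numbers were 13, 25 and 6. No combined peak on II narrower than 1500 bp held 2 or more peaks of a replicate. The median part of a broad peak under replicate peaks was 40.1% of its bases in replicate 1 and 66.6% in replicate 2. II 6888127 to 6892192 (4066 bp) was in 3 pieces in replicate 1 and 1 block in replicate 2, whereas II 9933261 to 9937031 was in 1 piece covering 20.7% of it in replicate 1 and 3 pieces covering 68.6% in replicate 2. The number of pieces thus differed between the replicates for the same domain.

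**Figure D3:**
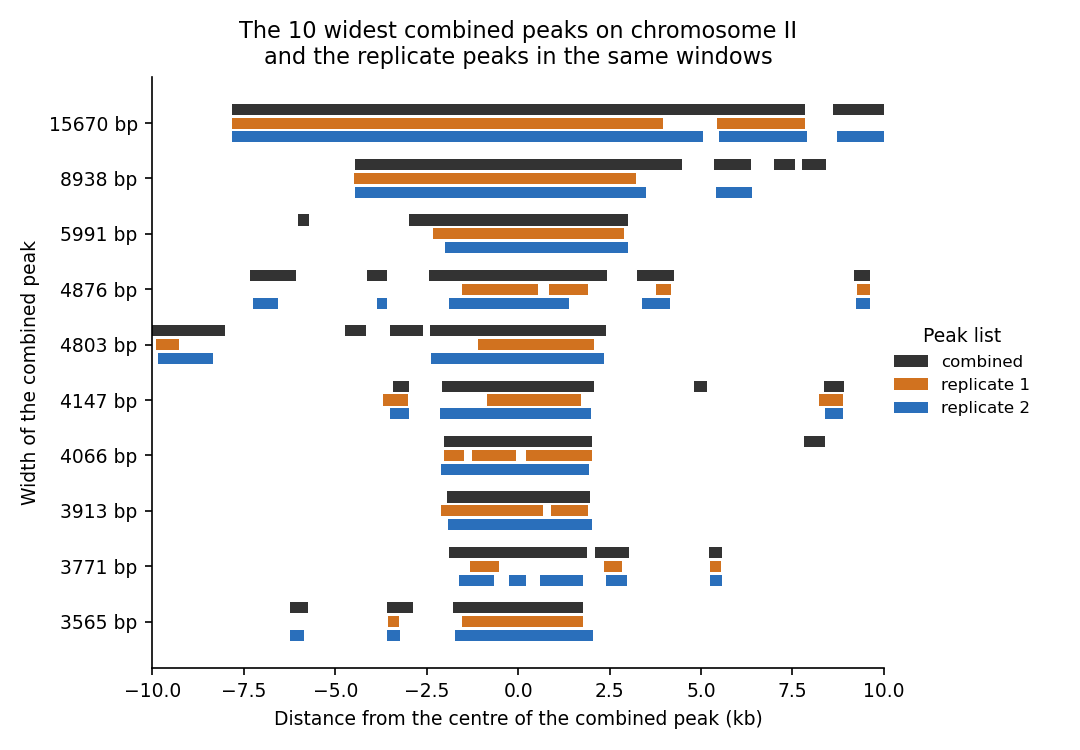
The 10 widest combined peaks on chromosome II, from the widest at the top, each with the peaks of replicates 1 and 2 in the same window (x axis, distance from the centre of the combined peak in kb; bars span each called peak). The widest domain of 15670 bp has 2 pieces in each replicate, and the domain of 4066 bp has 3 pieces in replicate 1 and 1 in replicate 2.

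Each combined peak on II was looked up in the replicate lists by an overlap of at least 1 bp. Of the 531 peaks, 189 overlapped peaks of both replicates (35.6%, Wilson interval 31.6 to 39.8%), against a background of 35.7% over all combined peaks. A further 106 (19.96%) overlapped replicate 2 alone, 28 (5.27%) replicate 1 alone, and 208 (39.2%, 35.1 to 43.4%) overlapped neither, against a background of 40.9%. On the other autosomes 35.3% were found in both and 41.5% in neither, and neither difference passed (Fisher's exact test, adjusted p = 0.92 and 0.55). These ChIP samples were taken to underlie the combined list as well, so overlap with them is built in.

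Support followed strength, but the same ChIP samples were taken to underlie the combined strength and the replicate lists. A trend between strength and support is therefore partly built in, and its size beyond that was not tested. Peaks in both replicates had a median strength of 15.6 and a median width of 660 bp, and those in neither had 4.42 and 406 bp. The II peaks were split by strength into 4 classes of about equal number. In class 1, the strongest, 128 of 133 (96.2%) were in both replicates, in class 2 it was 53 of 133 (39.8%) and in class 3 it was 8 of 133 (6.02%). In class 4, the weakest, the count was 0 of 132, which allows a share of up to 2.27% when 3 counts are taken as the limit (the Wilson upper limit is 2.83%), and 117 (88.6%) were in neither. Most peaks were thus in both replicates only in class 1, with strengths of 12.45 and above. Class 2 ran from 12.44 to 6.55, with 10.5% in neither replicate. Class 3 ran from 6.53 to 4.56, with 57.1% in neither.

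The strongest II peak found in neither replicate was II 6838206 to 6839930, 1725 bp wide with a strength of 13.5. It was followed by II 12055155 to 12056743 (1589 bp, 10.4), II 3682785 to 3683169 (385 bp, 9.04), II 2204140 to 2204584 (445 bp, 8.54) and II 12795953 to 12797706 (1754 bp, 8.45). Among these 5, 3 were broad peaks. At the other end, 10 combined peaks on II were narrower than 100 bp, down to 1 bp, with strengths from 3.57 to 4.61. All 10 were found in neither replicate, as were 117 of the 132 peaks of class 4 (88.6%), with strengths from 3.57 to 4.55. Width and low strength were not told apart here.

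**Figure D4:**
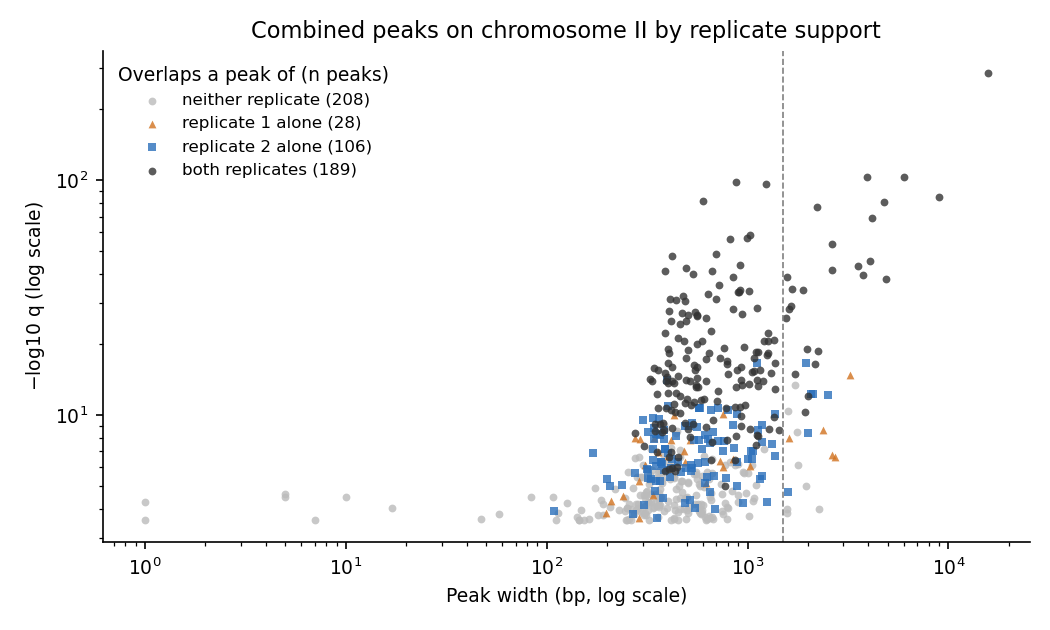
Width (x axis, bp, log scale) and strength (y axis, −log10 q, log scale) of the 531 combined peaks on chromosome II, marked by the replicate lists they overlap; the dashed line is at 1500 bp. Peaks found in both replicates have a median strength of 15.6 and those in neither 4.42. All 10 peaks narrower than 100 bp were found in neither, as were 88.6% of the 132 weakest peaks.

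Strength and width were related across the 531 peaks (Spearman's rho 0.48). This is a description across peaks that share the same libraries, and a wide peak can gather more reads. Of the 44 broad peaks, 25 (56.8%, Wilson interval 42.2 to 70.3%) were in both replicates, as were 164 of the 487 narrower peaks (33.7%, 29.6 to 38.0%). Median strength was 16.6 for broad and 6.29 for narrower peaks.

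Between the replicates themselves, 196 of the 225 replicate 1 peaks on II had an overlapping peak in replicate 2 (87.1%, Wilson interval 82.1 to 90.9%), against a background of 86.7% over all of its peaks. In the other direction 191 of 309 replicate 2 peaks (61.8%, 56.3 to 67.1%) overlapped replicate 1, against a background of 64.4%. On the other autosomes these shares were 81.5 to 91.4% and 62.5 to 65.9%, so II lay inside the first range and just below the second, with an interval that spans it.

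Across the 196 overlapping pairs, strength had a Spearman's rho of 0.78 and width one of 0.82. Pearson's r of strength was 0.93, and 0.87 when the 2 pairs with the most extreme replicate 1 values were left out. These are correlations across peaks, which share libraries, and the 196 pairs used 191 different peaks of replicate 2. Replicate 2 had the higher value in 151 pairs (77.0%), with a median ratio of 1.23. Starts differed by a median of 49 bp and ends by 51.5 bp, and in 101 pairs (51.5%) both edges differed by at most 100 bp.

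**Figure D5:**
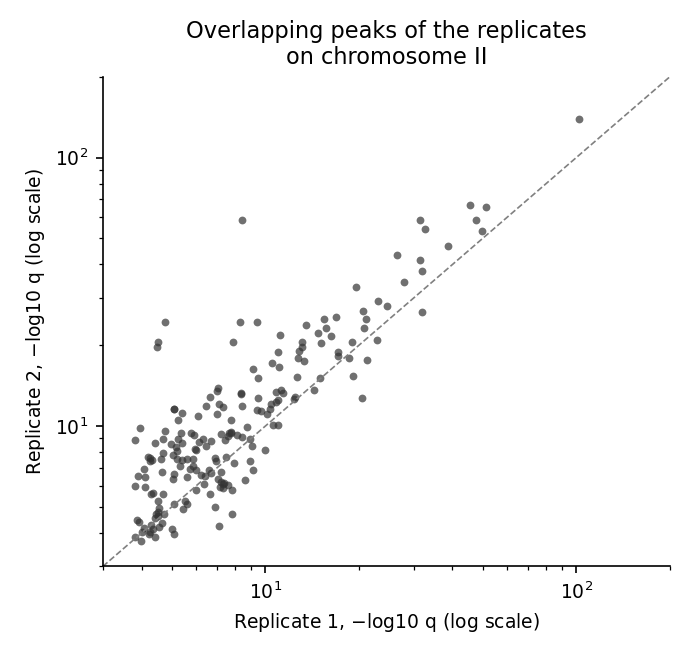
Strength (−log10 q, log scales) of the 196 pairs of overlapping peaks on chromosome II, with replicate 1 on the x axis and replicate 2 on the y axis; the dashed line marks equal values. Of these pairs, 151 lie above the line.

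Unpaired replicate peaks, with no partner in the other replicate, had lower medians than paired ones. Replicate 1 had 29 on II, with a median strength of 4.83 against 7.13 for its paired peaks. Replicate 2 had 118, with 4.69 against 8.97. The strongest of replicate 1 were II 2252103 to 2252856 (6.88), 4904213 to 4904671 (6.50), 7537501 to 7537887 (6.49), 10196993 to 10197335 (6.16) and 9117553 to 9118551 (6.05). In replicate 2 they were II 2970497 to 2972315 (11.9), 6489639 to 6490099 (11.7), 5061753 to 5062113 (9.32), 11238913 to 11239485 (7.95) and 8015986 to 8017628 (7.88). All 10 of these overlapped a combined peak.

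Spacing was examined as the distance to the nearest peak. In the combined list 274 of 531 peaks (51.6%, Wilson interval 47.4 to 55.8%) had a neighbour at most 5000 bp away, against a background of 53.9%. On the other autosomes 1445 of 2562 did (56.4%, 54.5 to 58.3%), and the difference of -4.80 percentage points was short of the threshold (Fisher's exact test, adjusted p = 0.15). In the replicate 1 list alone the shares at 5000 bp were 29.8% on II and 39.1% on the others, which passed (Fisher's exact test, adjusted p = 0.035). With a distance of 2000 bp the shares were 29.9% on II and 38.6% on the others, which passed (Fisher's exact test, adjusted p = 0.0006). Without the dense chromosome III among the others, the share at 5000 bp was 53.9% there (adjusted p = 0.55, Fisher's exact test). A denser chromosome has closer neighbours by its number of peaks alone, and the part of density was not tested. In replicates 1 and 2, II had the lowest clustered share of the autosomes, 29.8% against 33.1 to 44.3% and 35.9% against 38.2 to 47.9%. Its density there was 14.7 and 20.2 per Mb, with 11.6 and 16.7 on I and 11.4 and 15.0 on V. In the combined list the share on V was lower, at 50.9%.

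The median gap between neighbouring peaks on II was 12603 bp, and the smallest was 200 bp. The other autosomes had medians from 7931 to 16079 bp and smallest gaps from 200 to 203 bp. Of 530 gaps on II, 55 were up to 1000 bp, 178 (33.6%) were up to 5000 bp and 31 were over 100 kb. Runs, defined as neighbours with gaps of at most 5000 bp, numbered 96 and held 274 peaks, in 54 pairs, 22 triplets and 20 larger runs. The other 257 peaks stood alone.

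The largest runs held 7 peaks. They lay at II 2240736 to 2252853 in the left arm, II 9108331 to 9121159 in the centre and II 14234318 to 14252019 in the right arm. The left-arm run had strengths from 4.24 to 10.1, no peak found in both replicates and 5 found in neither. The run in the centre had 1 peak in both replicates and 5 in neither. That of the right arm reached a strength of 53.3 at its right end and had 1 in both and 3 in neither.

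Runs of 6 peaks were at II 5329744 to 5350634, II 8478533 to 8487849 and II 12036517 to 12045492. The first of these spanned 20891 bp, contained the domain of 4876 bp and had 3 peaks in both replicates and 0 in neither. The second was the most filled, with 76.2% of its 9317 bp under combined peaks, and replicate 2 had 7 peaks there against 2 of replicate 1. In the third, 5 of 6 peaks were found in neither replicate. A further 5 runs held 5 peaks each, and the first of them by position were II 2452489 to 2463863 and II 2971223 to 2978131. The runs named here thus differed in how many of their peaks a replicate shared, from 0 to 3 in both replicates.

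Support was compared between clustered and isolated peaks, and the intervals overlapped. Both replicates held 96 of the 274 clustered peaks (35.0%, Wilson interval 29.6 to 40.9%) and 93 of the 257 isolated ones (36.2%, 30.6 to 42.2%). Clustered peaks had a median strength of 6.60 and a median width of 593 bp, and isolated peaks 6.53 and 432 bp. Of the 44 broad peaks, 36 (81.8%) had a neighbour within 5000 bp, as did 238 of the 487 narrower ones (48.9%).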

How the data were processed

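Peaks were read from 3 deposited lists, namely the combined list and those of ChIP replicates 1 and 2. Per the file headers they are in WormBase WS180, and the records name PeakSeq as the caller. Each record gives both edges of a peak and the authors' q-value, from which −log10 q was computed. Aligner, filters, cut-off, depth and the making of the combined list are not stated in the sources used. Another threshold or depth could give other peaks and widths.

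The members, lists and tests were chosen with earlier results of these data known. Peaks overlapping by at least 1 bp were shared, and the partner of largest overlap was taken. Shares on II were compared with chromosomes I, III, IV and V together by two-sided Fisher's exact tests, adjusted over 7 tests by the Benjamini-Hochberg method at 0.05. In each alternative setting its p-value replaced that of the main test among the 7, and no adjustment was made over the alternatives. The side of the threshold in an alternative therefore depends on the other main p-values too. Wilson intervals (95%) cover counting of peaks only. Named on II were the 20 strongest and 10 widest combined peaks, the 8 largest runs, the 5 longest gaps, and up to 5 strongest peaks of each kind without a partner. Overlap, spacing and arm procedures were tested on simulated lists. Software was scipy 1.17.1, numpy 2.4.6, pandas 2.3.3 and matplotlib 3.10.9 under Python 3.11.15.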

Additional observations from a re-analysis of the deposited data

How the results depend on the processing

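Over 11 results and 80 alternatives, 57 kept their direction and side of the threshold, or stayed near their value. The comparisons with single autosomes, with peaks found in both replicates and with runs counted once were chosen after seeing the data. The right part of arm peaks stayed between 59.9 and 67.2% on II in all 14 settings and passed in 12. It did not pass against chromosome I alone or V alone (61.8% in each). Settings that change only the other autosomes leave the share on II as it is. V, III or I was dropped from the others in turn, but never IV, which had the lowest share (38.2%). The arm share passed against V alone and was below that of I alone (46.3% in each). Without chromosome I among the others, 35.6% in both replicates and 39.2% in neither turned round, to differences of -1.80 and 0.79 percentage points. The broad share turned below the others among peaks found in both replicates (13.2%) and in replicate 1 (5.33%), and the strong share did so at the strongest 25% (24.9%). For peaks up to the median q, the share in neither replicate (3.97%) and the clustered share (27.8%) passed as lower on II. The clustered share also passed with gaps of 2000 bp (29.9%), in the replicate 1 list (29.8%) and without chromosome V among the others (51.6%). It passed in 4 of 9 settings in all, and not in the replicate 2 list (35.9%) or with gaps of 10000 bp (68.0%). Using a single replicate list gave 29.8 to 35.9% clustered, 5.33 to 6.80% broad, 225 to 309 peaks and a median spacing of 28197 to 38449.5 bp; with peaks up to the median q these were 252 peaks and 33609 bp. In the single replicate lists arm shares were 44.3 to 48.9% and strong shares 9.78 to 11.7%. Looked up in 1 replicate alone, 40.9 to 55.6% of combined peaks were found and 44.4 to 59.1% were not. Replicate 1 peaks found in replicate 2 were 79.1% with a reciprocal overlap of 50% and 74.7% with midpoints within 200 bp, where replicate 2 peaks found in replicate 1 were 54.4%. The cause was not tested. No paired analysis was possible because the ChIP samples were not compared with another group. Depth is unknown, and its part in peak numbers and strengths was not tested.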

Other observations

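A short interval inside the left-arm run of 7 peaks was called in both replicates and overlapped no combined peak. It spanned II 2241345 to 2241544 in replicate 1 (200 bp) and II 2241337 to 2241528 in replicate 2 (192 bp), with a strength of 4.02 in each. In all, 2 replicate 1 peaks and 8 replicate 2 peaks on II overlapped no combined peak, and the strongest of these had 4.23 in replicate 1, at II 2187720 to 2188266, and 4.57 in replicate 2, at II 8143248 to 8143593.

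The strongest combined peak on II that overlapped replicate 1 alone was a broad one, II 10445026 to 10448278, 3253 bp wide with a strength of 14.7. The one that overlapped replicate 2 alone was II 8478533 to 8480490, 1958 bp wide with 16.7. It was the first peak of the run of 6 peaks at II 8478533 to 8487849. In peaks found in both replicates on II, the combined strength was a median of 1.92 times the mean of the replicate strengths. Because strength ranks peaks within 1 list and depth is unknown, this ratio cannot be read as more binding.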
